A study of Mus musculus with 11 samples.

Results

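Cathepsins are proteases, most of them of the lysosome. The 10 described here are Ctsa, Ctsb, Ctsc, Ctsd, Ctse, Ctsh, Ctsk, Ctsl, Ctss and Ctsz, of 19938 genes measured. They were taken as the probe sets that carry the single gene symbol of a member, and each of the 10 genes had exactly 1 probe set. RNA of 11 mouse stomach samples was hybridised to Affymetrix expression arrays, 1 array per sample. Cancer tissue, labelled diffuse type, came from 2 genotypes in which Pdx-1-Cre, a Cre driven by the Pdx1 promoter, recombines floxed alleles. In pChePS_GC (4 samples) these are 1 of the Cdh1 alleles (Cdh1F/+), both of Trp53 (Trp53F/F) and both of Smad4 (Smad4F/F), and in pCP_GC (3 samples) both alleles of Cdh1 (Cdh1F/F) and of Trp53 (Trp53F/F). The third group, NGE (4 samples), is normal gastric epithelium taken from Cre-negative mice. The mice were left untreated, and the labels give no ages. Whether each sample of a group is from its own mouse is not stated in the labels, so the p-values reflect spread between samples that may be technical.

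Cathepsins are made as inactive precursors, carried to the lysosome by the mannose 6-phosphate receptors and activated in its acid interior. They fall into 3 catalytic classes. Ctsd and Ctse are aspartic proteases, Ctsa is a serine carboxypeptidase, and the rest of the set are papain-like cysteine proteases held in check by cystatins. Ctse is a cathepsin of gastric surface epithelium and some immune cells, Ctsk is best known as the collagen-degrading enzyme of osteoclasts and is also made by activated fibroblasts, and Ctss is typical of macrophages and other antigen-presenting cells.

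Levels are the deposited normalized log2 signals and changes are differences of group means on that log2 scale. A level is compared only with the same gene's level on other arrays. Array medians lay between 7.63 and 7.81, and precision is limited by how many arrays each group has. Cdh1 read 9.76, 11.07, 8.81 and 8.73 in pChePS_GC, 12.02, 11.06 and 10.52 in pCP_GC, and 12.93 to 13.02 in NGE, below NGE on every tumour array. Smad4 averaged 10.49 ± 0.40 in pChePS_GC, where it is floxed, 11.44 ± 0.05 in pCP_GC and 11.09 ± 0.05 in NGE (SD, n = 4, 3 and 4). Trp53 was not analysed here. Of 8 epithelial genes the mean level was 12.14 to 12.43 in pChePS_GC, 12.10 to 12.62 in pCP_GC and 12.13 to 12.26 in NGE, a mean over members that went both ways. In pChePS_GC 3 of them rose and 1 fell, and in pCP_GC 2 rose and 2 fell. Cldn7, a claudin, averaged 11.64, 11.47 and 8.07 in pChePS_GC, pCP_GC and NGE, and Krt8, a simple-epithelium keratin, 13.93, 13.90 and 14.05. Xist, the female X-inactivation RNA, read 5.57 to 6.02 on the tumour arrays and 11.54 to 12.66 on the NGE arrays, and the Y-linked Eif2s3y read 8.08 to 11.09 and 4.94 to 5.19 on the same arrays. Sex and tumour status therefore cannot be told apart for any gene in the comparisons with NGE.

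Against normal epithelium, 7 of the 10 cathepsins rose in both tumour genotypes: Ctss, Ctsk, Ctsl, Ctsh, Ctsz, Ctsc and Ctsa. Ctse fell in pChePS_GC and did not pass in pCP_GC, and Ctsb and Ctsd passed in neither. In bulk tissue a change in the number of cells of a type and a change in RNA per cell cannot be told apart. The test was limma over all 19938 genes, with a gene called at a Benjamini-Hochberg adjusted p under 0.05. In pChePS_GC against NGE 7 members rose and 1 fell, where 18.7% of all genes rose, 23.4% fell and 42.1% passed in either direction. In pCP_GC against NGE 7 members rose and 0 fell, where 20% of all genes rose, 31.8% fell and 51.8% passed. At an unadjusted p under 0.05 the pCP_GC counts were also 7 and 0. The median change of the 10 members was 1.26 in pChePS_GC and 1.06 in pCP_GC, against -0.10 and -0.12 over all genes. The arrays of the groups did not overlap for 8 members in each comparison, and for 40.6% and 59.6% of all genes. The pChePS_GC and pCP_GC comparisons share the 4 NGE arrays, so they are not independent of each other.

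**Figure D1:**
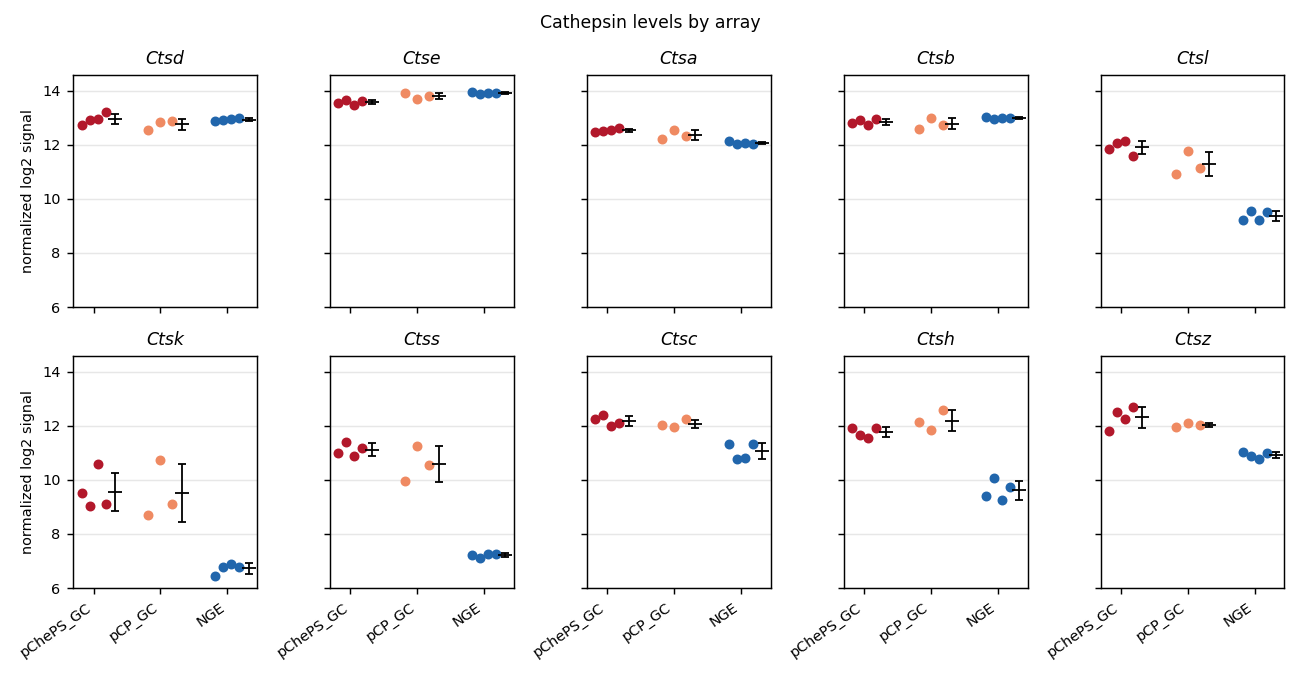
Normalized log2 signal of each cathepsin (vertical axis) on each array, by group. Points are arrays, and black marks give the group mean and SD (n = 4, 3 and 4). Ctsl, Ctsk, Ctss, Ctsc, Ctsh and Ctsz sit higher on every tumour array than on every NGE array, while Ctsd and Ctsb overlap between pChePS_GC and NGE.

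Scaling bears on the smaller changes. After every array's own median was subtracted, the median of all genes moved by -0.17 in pChePS_GC against NGE and by -0.21 in pCP_GC against NGE, so that changes of that size depend on the scaling. The calls over all genes were then 2695 higher and 9101 lower in place of 3728 and 4658 for pChePS_GC, and 2686 and 9716 in place of 3994 and 6343 for pCP_GC. Ctss, Ctsk, Ctsl, Ctsh, Ctsz and Ctsc rose under every scaling tried in both genotypes. The calls of Ctsb and Ctse depended on the scaling in both genotypes, and those of Ctsa and Ctsd in pCP_GC only.

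Among the aspartic cathepsins, Ctse read 13.53, 13.67, 13.49 and 13.61 in pChePS_GC, 13.90, 13.68 and 13.80 in pCP_GC, and 13.97, 13.88, 13.93 and 13.92 in NGE. All 4 pChePS_GC arrays lay under all pCP_GC and NGE arrays, and pCP_GC and NGE overlapped. In pChePS_GC, Ctse fell by 0.35 (SE 0.08, adjusted p = 0.00514). For pCP_GC the difference was -0.13 (95% interval -0.31 to 0.05, adjusted p = 0.211). With quantile normalization the pChePS_GC change was -0.13 (adjusted p = 0.208) and the pCP_GC change 0.11, while with centred arrays both passed, at -0.52 (adjusted p = 0.00102) and -0.34 (adjusted p = 0.0105). Array maxima were 14.37 to 14.56, close to these levels. Where signal saturates there a fall is a lower bound, which was not tested.

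Ctse is known from surface mucous (pit) cells, and genes of that and other gastric lineages had lower mean levels. Of 10 pit cell genes 9 fell in pChePS_GC and 3 in pCP_GC, where 23.4% and 31.8% of all genes fell. The pCP_GC count is near that share. Median changes of the 10 genes were -2.97 in pChePS_GC and -1.27 in pCP_GC. Muc5ac, the secreted mucin of pit cells, read 7.44, 11.73, 8.22 and 10.30 in pChePS_GC, 12.35, 12.64 and 12.27 in pCP_GC, and 14.22 to 14.29 in NGE. In pChePS_GC it fell by 4.84 (adjusted p = 0.000546). The difference in pCP_GC was -1.84, with adjusted p = 0.0716. The mean level of these genes was 10.04 to 11.70 in pChePS_GC, 11.15 to 12.10 in pCP_GC and 13.28 to 13.40 in NGE. Chief and parietal cell genes were lower by more: 5 of 5 chief genes fell in pChePS_GC and 4 of 5 in pCP_GC (medians -3.46 and -1.81), and 5 of 6 parietal genes fell in each (medians -4.74 and -4.44). The part of any of these lineages in the Ctse values was not tested.

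The other aspartic proteases went both ways: of 6 measured, 2 rose and 3 fell in pChePS_GC, and 2 rose and 2 fell in pCP_GC. Among all genes 18.7% rose and 23.4% fell in pChePS_GC, and 20% rose and 31.8% fell in pCP_GC. Pga5, a pepsinogen of chief cells, fell by 3.46 in pChePS_GC (SE 0.32, adjusted p = 2.03e-05). In pCP_GC it fell by 1.53 (SE 0.34, adjusted p = 0.00424). Cym, the milk-clotting enzyme chymosin, read 12.53, 9.43, 7.80 and 7.82 in pChePS_GC, 11.34, 12.16 and 10.67 in pCP_GC, and 8.33 to 9.15 in NGE. It rose by 2.71 in pCP_GC (adjusted p = 0.0329), and its pChePS_GC arrays lay on both sides of NGE (0.72, adjusted p = 0.517). Bace1, the beta-secretase, rose by 1.23 in pChePS_GC and 1.36 in pCP_GC (adjusted p = 0.00357 and 0.00247).

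Ctsd, the general aspartic protease of lysosomes, read 12.74, 12.90, 12.97 and 13.21 in pChePS_GC, 12.53, 12.84 and 12.89 in pCP_GC, and 12.89, 12.90, 12.94 and 12.99 in NGE. The pChePS_GC arrays spread to both sides of NGE, while of the pCP_GC arrays replicates 2 and 3 lay at its lower edge and replicate 1 was clearly below it. Its changes were 0.03 in pChePS_GC (95% interval -0.22 to 0.28, adjusted p = 0.856) and -0.18 in pCP_GC (95% interval -0.45 to 0.09, adjusted p = 0.245). The pCP_GC change passed after centring (-0.39, adjusted p = 0.0155). It also passed when limma weighted the arrays (-0.28, adjusted p = 0.0248).

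Ctsa, a carboxypeptidase that also shields beta-galactosidase and neuraminidase in the lysosome, rose by the least of the members that rose. It read 12.47, 12.52, 12.54 and 12.62 in pChePS_GC, 12.21, 12.56 and 12.32 in pCP_GC, and 12.13, 12.02, 12.07 and 12.03 in NGE. Every tumour array lay above every NGE array. The changes were 0.47 in pChePS_GC (SE 0.09, adjusted p = 0.00195) and 0.30 in pCP_GC (SE 0.10, adjusted p = 0.0231). The pCP_GC call was lost with centred arrays (0.08, adjusted p = 0.432). It was also lost on leaving out NGE replicate 4 (0.29, adjusted p = 0.055) or replicate 2 of pCP_GC (0.20, adjusted p = 0.0973).

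Many lysosomal genes carry the CLEAR element, a binding motif of TFEB and its relatives, in their promoters. The windows of 250 bases before and 50 after a gene's start, from RefSeq on GRCm38.p6, matched 7 of the 10 members with 8 windows. They were searched for the palindromic CLEAR core TCACGTGA, which reads the same on both strands and contains the shorter E-box CACGTG. The core was found in Ctsa and Ctsd and in 0.974% of all 32851 windows, and the E-box in Ctsa, Ctsd and Ctsl and in 7.15% of all windows. The windows of Ctsd (chr7:142387778-142388077, minus strand) and Ctsa (chr2:164833523-164833822, plus strand) are shown because they hold the core, in capitals here along with a further E-box in Ctsd, read 5' to 3' on the gene's strand.
Ctsd: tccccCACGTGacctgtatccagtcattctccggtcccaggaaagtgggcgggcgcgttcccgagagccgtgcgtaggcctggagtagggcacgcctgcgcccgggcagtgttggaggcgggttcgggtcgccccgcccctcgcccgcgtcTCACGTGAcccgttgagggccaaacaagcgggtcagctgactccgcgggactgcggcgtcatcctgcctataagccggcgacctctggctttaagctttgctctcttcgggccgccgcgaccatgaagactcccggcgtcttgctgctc
Ctsa: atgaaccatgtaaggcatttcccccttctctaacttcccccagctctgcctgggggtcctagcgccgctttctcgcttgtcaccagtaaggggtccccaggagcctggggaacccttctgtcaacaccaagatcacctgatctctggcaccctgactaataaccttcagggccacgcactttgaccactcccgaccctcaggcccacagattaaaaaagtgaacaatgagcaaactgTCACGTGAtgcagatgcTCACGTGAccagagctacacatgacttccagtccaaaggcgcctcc
In Ctsa the E-boxes within the cores start at -12 and at 6 from the gene's start, and in Ctsd the E-boxes start at -245 and at -98. A match is a description of the letters and says nothing of binding.

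Ctss, an endopeptidase that stays active at neutral pH and trims the invariant chain of MHC class II, had the largest rise of the 10. It read 10.99, 11.42, 10.87 and 11.17 in pChePS_GC, 9.95, 11.27 and 10.55 in pCP_GC, and 7.21, 7.10, 7.27 and 7.25 in NGE. Every tumour array stood more than 2 log2 units above every NGE array, and pCP_GC replicate 1 was the lowest tumour array. Ctss rose by 3.91 in pChePS_GC (SE 0.23, adjusted p = 1.29e-06), a 15-fold change, and by 3.38 in pCP_GC (SE 0.25, adjusted p = 6.52e-06), a 10.4-fold change. Among all genes ordered by rise, Ctss stood at rank 67 in pChePS_GC and rank 116 in pCP_GC.

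Ctsk, a potent collagenase, followed with the widest spread. It read 9.52, 9.02, 10.58 and 9.11 in pChePS_GC, 8.71, 10.73 and 9.11 in pCP_GC, and 6.45, 6.79, 6.89 and 6.79 in NGE. Each tumour group has 1 array far above its others, pChePS_GC replicate 3 and pCP_GC replicate 2. Ctsk rose by 2.83 in pChePS_GC (SE 0.43, adjusted p = 0.000559), a 7.1-fold change, and by 2.79 in pCP_GC (SE 0.46, adjusted p = 0.000953), a 6.9-fold change. Without pChePS_GC replicate 3 the first was 2.49, and without pCP_GC replicate 2 the second was 2.18. The NGE means of Ctsk (6.73) and Ctss (7.21) were below 7.24. That is the level under which 95% of 1190 odorant and pheromone receptor genes lay on the NGE arrays, and where it is background both rises are lower bounds.

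Ctsk and Ctss are neighbours on chromosome 3, with 0 protein-coding genes between them in RefSeq. Their start windows are shown as those of the members with the largest rises. Neither holds an E-box or CLEAR core, so nothing is in capitals. Ctsk lies at chr3:95498960-95499259, plus strand, and Ctss at chr3:95526536-95526835, plus strand.
Ctsk: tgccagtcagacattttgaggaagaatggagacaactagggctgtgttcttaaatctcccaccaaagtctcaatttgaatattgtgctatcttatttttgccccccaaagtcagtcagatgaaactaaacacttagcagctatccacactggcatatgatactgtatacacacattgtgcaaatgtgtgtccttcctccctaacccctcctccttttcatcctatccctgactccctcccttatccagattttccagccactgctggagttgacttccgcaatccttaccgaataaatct
Ctss: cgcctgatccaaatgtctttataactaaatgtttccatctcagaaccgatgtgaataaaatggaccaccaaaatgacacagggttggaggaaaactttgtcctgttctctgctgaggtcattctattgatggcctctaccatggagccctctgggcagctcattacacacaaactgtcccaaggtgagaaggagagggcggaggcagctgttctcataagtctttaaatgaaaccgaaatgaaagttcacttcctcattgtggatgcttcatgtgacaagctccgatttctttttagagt

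Ctsl, the broad lysosomal endopeptidase that also processes the invariant chain, read 11.85, 12.05, 12.14 and 11.58 in pChePS_GC, 10.93, 11.77 and 11.14 in pCP_GC, and 9.22, 9.56, 9.21 and 9.50 in NGE. All tumour arrays lay above NGE, and 1 pCP_GC array, replicate 2, reached into the pChePS_GC range. Ctsl rose by 2.53 in pChePS_GC (SE 0.19, adjusted p = 4.66e-06) and by 1.91 in pCP_GC (SE 0.20, adjusted p = 5.77e-05), or 5.78-fold and 3.75-fold.

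**Figure D2:**
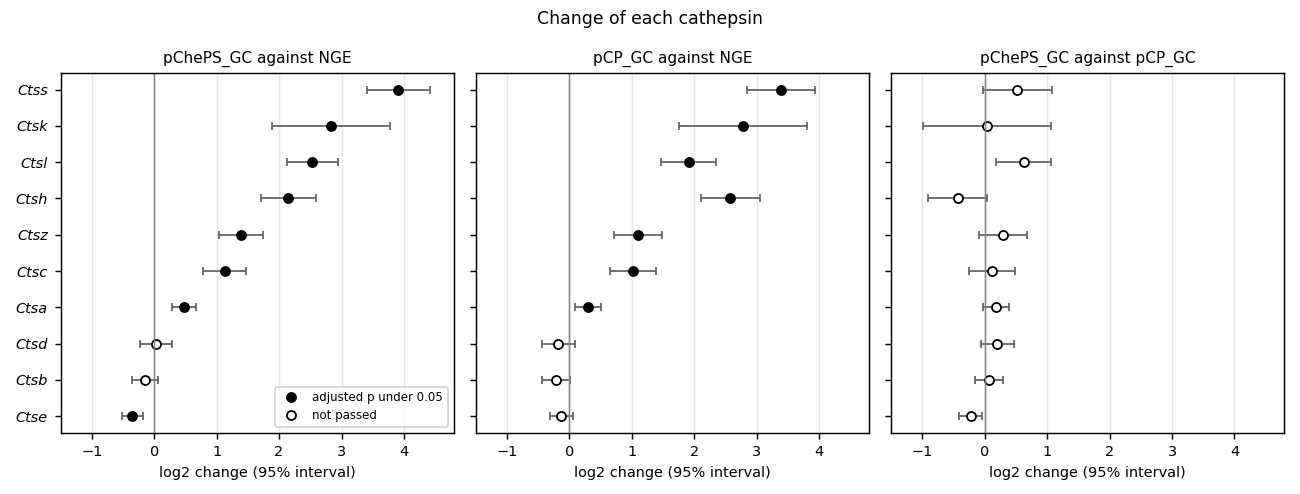
Log2 change of each cathepsin (horizontal axis) in the 3 comparisons, with 95% intervals from limma. Filled points passed at an adjusted p under 0.05. Ctss leads with 3.91 and 3.38 against NGE, and no point is filled between the tumour groups.

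The remaining cysteine cathepsins trim peptides from their ends. Ctsh, an aminopeptidase, read 11.91, 11.66, 11.56 and 11.92 in pChePS_GC, 12.13, 11.85 and 12.60 in pCP_GC, and 9.40, 10.06, 9.26 and 9.74 in NGE. It rose by 2.15 in pChePS_GC (SE 0.20, adjusted p = 2.08e-05) and by 2.58 in pCP_GC (SE 0.21, adjusted p = 1.34e-05), and is the member whose pCP_GC mean exceeded its pChePS_GC mean by the most. Every tumour array was above every NGE array.

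Ctsz, a carboxypeptidase also called cathepsin X, read 11.81, 12.51, 12.26 and 12.69 in pChePS_GC, 11.94, 12.11 and 12.04 in pCP_GC, and 10.78 to 11.03 on the 4 NGE arrays. It rose by 1.39 in pChePS_GC (SE 0.16, adjusted p = 9.32e-05) and by 1.11 in pCP_GC (SE 0.17, adjusted p = 0.000717). The tumour and normal ranges were apart in both genotypes. Ctsc, the dipeptidyl peptidase that activates the granule serine proteases of neutrophils, mast cells and killer cells, read 12.27, 12.41, 11.98 and 12.12 in pChePS_GC, 12.02, 11.96 and 12.25 in pCP_GC, and 11.33, 10.79, 10.81 and 11.33 in NGE. It rose by 1.13 in pChePS_GC (SE 0.15, adjusted p = 0.000283) and by 1.01 in pCP_GC (SE 0.17, adjusted p = 0.000898).

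Some of the granule serine proteases that Ctsc activates gave little signal. Of 8 measured, 3 lay under the receptor-gene percentile in every group, which leaves their changes unmeasured. In all, 0 rose and 1 fell in pChePS_GC, and 1 rose and 2 fell in pCP_GC, where 23.4% and 31.8% of all genes fell. The pChePS_GC fall was 1 of those 3, and 0 of the pCP_GC falls were. The member that rose in pCP_GC was Mcpt4, a mast cell chymase, which read 8.02, 9.50 and 7.02 there and 6.21 to 6.84 in NGE (change 1.61, adjusted p = 0.0307). Its NGE level was under the percentile, so the rise may be a lower bound.

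Ctsb, which is both an endopeptidase and a dipeptide-releasing enzyme, read 12.80, 12.91, 12.72 and 12.96 in pChePS_GC, 12.60, 12.99 and 12.75 in pCP_GC, and 13.03, 12.95, 12.99 and 12.99 in NGE. Tumour arrays reached into the NGE range from below. Its changes were -0.14 in pChePS_GC (95% interval -0.35 to 0.07, adjusted p = 0.233) and -0.21 in pCP_GC (95% interval -0.44 to 0.02, adjusted p = 0.107). They passed with centred arrays (-0.32, adjusted p = 0.011, and -0.42, adjusted p = 0.00297), and in pCP_GC also when arrays were weighted (-0.30, adjusted p = 0.00517) or replicate 2 of that group was left out (-0.31, adjusted p = 0.0278).

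Between the tumour genotypes no cathepsin passed. In pChePS_GC against pCP_GC limma called 0 members higher and 0 lower, where 0.115% of all genes were higher, 0.251% lower and 0.366% called in all. At an unadjusted p under 0.05, Ctsl was higher (change 0.62, 95% interval 0.18 to 1.07, adjusted p = 0.185) and Ctse lower (change -0.22, 95% interval -0.40 to -0.04, adjusted p = 0.237). Ctse was also the single member whose arrays did not overlap between the tumour groups, as 13.9% of all genes did not. Ctsh differed by -0.43 (95% interval -0.90 to 0.04), Ctss by 0.52 (95% interval -0.02 to 1.07) and Ctsk by 0.04 (95% interval -0.98 to 1.06). The Ctsk interval admits a change of about a log2 unit either way, and these p-values do not show that the genotypes are alike.

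In order of level, then, NGE was lowest for Ctss, Ctsk, Ctsl, Ctsh, Ctsz, Ctsc and Ctsa, with the tumour groups above it and not separated from each other. For Ctse pChePS_GC was lowest and passed only against NGE. For Ctsb and Ctsd no neighbouring groups passed.

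The tumour samples also differ from NGE in markers of other cell types. The mean level of the 6 parietal genes was 7.75 to 8.13 in pChePS_GC, 7.60 to 9.14 in pCP_GC and 12.07 to 12.28 in NGE, and that of the 5 chief cell genes was 7.63 to 8.93, 8.17 to 10.39 and 11.64 to 12.32 in the same groups. Of 12 fibroblast genes 11 rose in pChePS_GC and 10 in pCP_GC, and their mean level was 10.58 to 11.55, 10.49 to 11.66 and 7.93 to 8.18 in pChePS_GC, pCP_GC and NGE. Of 12 macrophage genes all 12 rose in both, with mean levels of 10.09 to 10.70, 9.69 to 10.84 and 7.27 to 7.45 in the same order. Csf1r, the macrophage growth factor receptor, read 10.15 to 10.70, 9.78 to 10.95 and 7.39 to 7.52, and Pdgfra, a fibroblast receptor, read 9.59 to 10.98, 10.59 to 11.03 and 7.08 to 7.63. The part of the gastric, stromal and immune cells in the changes of the 10 cathepsins was not tested.

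The 2 tumour arrays with the most Ctsk were those with the most fibroblast and endothelial signal. The fibroblast mean level was highest in pCP_GC replicate 2 (11.66) and pChePS_GC replicate 3 (11.55), and 10.49 to 10.97 on the other tumour arrays. Ctsk was 10.73 and 10.58 on those 2 arrays and 8.71 to 9.52 on the others. The endothelial mean level was highest on the same arrays, at 10.54 in pChePS_GC replicate 3 and 10.16 in pCP_GC replicate 2, and 9.53 to 9.90 on the other tumour arrays. By the endothelial levels, the match is not particular to fibroblast genes. In pChePS_GC it held for the top array only. Next in Ctsk there was replicate 1 (9.52), with the lowest fibroblast (10.58) and endothelial (9.53) levels of that group. Within pCP_GC all arrays kept the same order. Smooth muscle genes were highest in pChePS_GC replicate 3 (12.33), and in pCP_GC highest in replicate 2 (11.97). The order of their levels matched that of Ctsk over the pCP_GC arrays, but in pChePS_GC only for the top array. In pChePS_GC replicate 2 their level was above that of pCP_GC replicate 2, although Ctsk read only 9.02 there. Of 6 endothelial and 6 smooth muscle genes all rose in both genotypes, as did 5 of 6 neutrophil genes. Of 6 T and NK cell genes 0 rose and 2 fell in each genotype. Over all genes 23.4% fell in pChePS_GC and 31.8% in pCP_GC. Of the 6 T and NK cell genes, 3 lay under the receptor-gene percentile in every group. Among them was 1 of the 2 falls in each genotype. For Ctss, pCP_GC replicate 1 had the lowest macrophage mean level among tumours (9.69) and the lowest Ctss. That array was also the lowest tumour array for fibroblast (10.49) and neutrophil (7.37) genes, so this match is not particular to macrophage genes. At the top there was no match: the macrophage level was highest in pCP_GC replicate 2 (10.84) and Ctss in pChePS_GC replicate 2 (11.42). Osteoclasts are the other classical source of Ctsk. Of 10 osteoclast genes 3 rose and 2 fell in pChePS_GC and 2 rose and 2 fell in pCP_GC. Over all genes 18.7% rose in pChePS_GC and 20% in pCP_GC. In each genotype the 2 osteoclast genes that fell lay under the receptor-gene percentile in every group. The mean level of the 10 was 8.39 to 8.84, 8.57 to 8.79 and 7.99 to 8.52 in pChePS_GC, pCP_GC and NGE. Calcr, the calcitonin receptor, read 6.36 to 6.64, 6.46 to 6.70 and 6.72 to 7.19, under the receptor-gene percentile of each group. Acp5, an acid phosphatase of osteoclasts and macrophages, read 10.64 to 11.65, 10.68 to 11.03 and 10.87 to 11.28. The members that rose were Mmp9, a gelatinase also made by macrophages and neutrophils (changes 1.81 and 1.41, adjusted p = 0.000782 and 0.00413), Itgb3, an integrin subunit also found on platelets and vessels (1.64 and 1.5, adjusted p = 0.00386 and 0.00679), and, in pChePS_GC, Tnfrsf11a, the receptor RANK (0.71, adjusted p = 0.041, with 0.66 and adjusted p = 0.06 in pCP_GC).

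**Figure D3:**
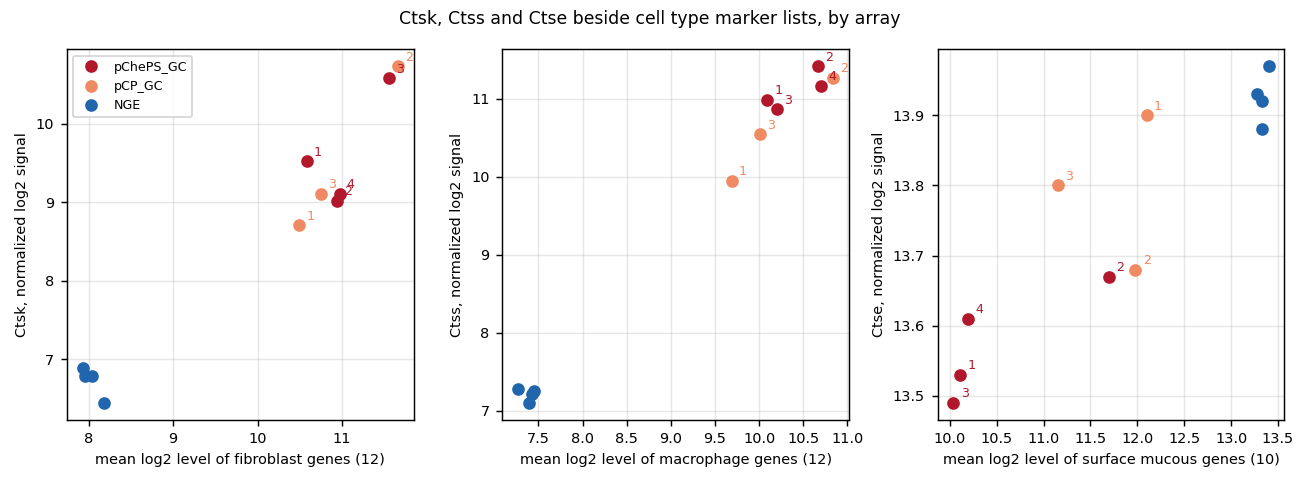
Ctsk, Ctss and Ctse (vertical axes, normalized log2 signal) against the mean log2 level of fibroblast, macrophage and surface mucous genes (horizontal axes), 1 point per array, with replicate numbers on the tumour arrays. Axes do not start at 0, and the Ctse axis spans 13.49 to 13.97 only. Ctsk is highest in pCP_GC replicate 2 and pChePS_GC replicate 3, where the fibroblast level is highest too, as is the endothelial level (10.16 and 10.54, not drawn).

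Cathepsins are regulated by endogenous inhibitors. Of 11 inhibitors 2 rose and 1 fell in pChePS_GC, and 2 rose and 2 fell in pCP_GC. The rises are near the shares of all genes, 18.7% and 20%, and the falls are under them, 23.4% and 31.8%. Of the 11, 6 lay under the receptor-gene percentile in every group, among them the gene counted as lower in pChePS_GC and both of those in pCP_GC. Ctla2a, which resembles the propeptide of cathepsin L and inhibits it, read 8.71, 7.98, 11.71 and 10.63 in pChePS_GC, 7.29, 10.70 and 7.52 in pCP_GC, and 5.04 to 5.68 in NGE. It rose by 4.44 (SE 0.87, adjusted p = 0.0027) and by 3.19 (SE 0.94, adjusted p = 0.016), from an NGE level under that percentile that makes both values lower bounds where it is background, and was highest on the arrays with the most Ctsk. Ctla2b, its near-identical neighbour, rose by 2.54 in pChePS_GC (adjusted p = 0.0196) and did not pass in pCP_GC (1.21, adjusted p = 0.221). Its NGE level was under the percentile too, and signal of the pair may cross between their probe sets. Cst3, cystatin C, the main secreted inhibitor, had changes of 0.20 (adjusted p = 0.142) and 0.35 (adjusted p = 0.0252), and Cstb, cystatin B, of 0.18 and -0.07, neither of which passed.

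Of 11 other cathepsin genes, most of them rodent placental or leukocyte cathepsins, 0 rose and 2 fell in pChePS_GC, and 0 rose and 4 fell in pCP_GC. Those falls are near the shares of all genes that fell, 23.4% and 31.8%. Of the 11, 7 lay under the receptor-gene percentile in every group, among them 1 of those counted as lower in pChePS_GC and 2 in pCP_GC, so the counts say little of those genes. Ctso, a widely expressed cysteine cathepsin, read 9.90, 9.81, 9.49 and 9.29 in pChePS_GC, 9.81, 10.14 and 10.02 in pCP_GC, and 9.96 to 10.54 in NGE. Ctso fell by 0.67 in pChePS_GC (adjusted p = 0.00744). A difference of -0.31 in pCP_GC did not pass (adjusted p = 0.155). Ctsf, another cysteine cathepsin, changed by 0.37 (adjusted p = 0.0577) and 0.18 (adjusted p = 0.338).

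The other hydrolases of the lysosome were mixed. Of 30 measured, 8 rose and 2 fell in pChePS_GC and 10 rose and 3 fell in pCP_GC, with median changes of 0.21 and 0.32. Among all genes 18.7% rose and 23.4% fell in pChePS_GC, and 20% rose and 31.8% fell in pCP_GC. Lgmn, the asparaginyl endopeptidase that activates several cathepsins, read 11.76, 11.96, 12.35 and 12.30 in pChePS_GC, 11.49, 12.30 and 11.84 in pCP_GC, and 10.27 to 10.43 in NGE. It rose by 1.74 (SE 0.18, adjusted p = 3.68e-05) and by 1.53 (SE 0.19, adjusted p = 0.000172), the largest rise of the list in each. Gusb, beta-glucuronidase, rose by 1.35 and 1.32 (adjusted p = 0.000144 and 0.000298), and Galns, a sulfatase, by 1.45 and 1.07 (adjusted p = 0.000555 and 0.00409).

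Of 27 lysosomal membrane and proton pump genes 6 rose and 4 fell in pChePS_GC and 7 rose and 4 fell in pCP_GC, with medians of -0.09 and 0.00. These rises are near the shares of all genes, 18.7% and 20%, and the falls are under them, 23.4% and 31.8%. Laptm5, a lysosomal membrane protein of blood cells, rose by 3.09 and 2.95 (adjusted p = 1.24e-05 and 3.42e-05), while Lamp1, the abundant lysosomal membrane glycoprotein, changed by -0.18 and -0.21 without passing (adjusted p = 0.108 and 0.0805). In the mannose 6-phosphate list 0 of 8 rose, and 4 fell in pChePS_GC and 2 in pCP_GC. The falls in pCP_GC are near the share of all genes there (31.8%, with 23.4% in pChePS_GC). Gga2, an adaptor that sorts mannose 6-phosphate receptors, fell by 1.90 in pChePS_GC and fell by 1.81 in pCP_GC (adjusted p = 1.71e-05 and 4.54e-05), reading 9.05 to 9.80 in pChePS_GC, 9.52 to 9.80 in pCP_GC and 11.25 to 11.76 in NGE.

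Factors that bind the CLEAR element went different ways. Tfeb, the best known of them, changed by -0.09 and -0.13 (adjusted p = 0.398 and 0.246). Tfec, a relative found in macrophages, rose by 0.98 and 1.01 (adjusted p = 0.0115 and 0.0109) from an NGE level under the receptor-gene percentile, Mitf fell by 1.12 and fell by 1.10 (adjusted p = 0.000459 and 0.000849), and Tfe3 rose by 0.74 in pChePS_GC (adjusted p = 0.015) with 0.50 in pCP_GC (adjusted p = 0.073).

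**Figure D4:**
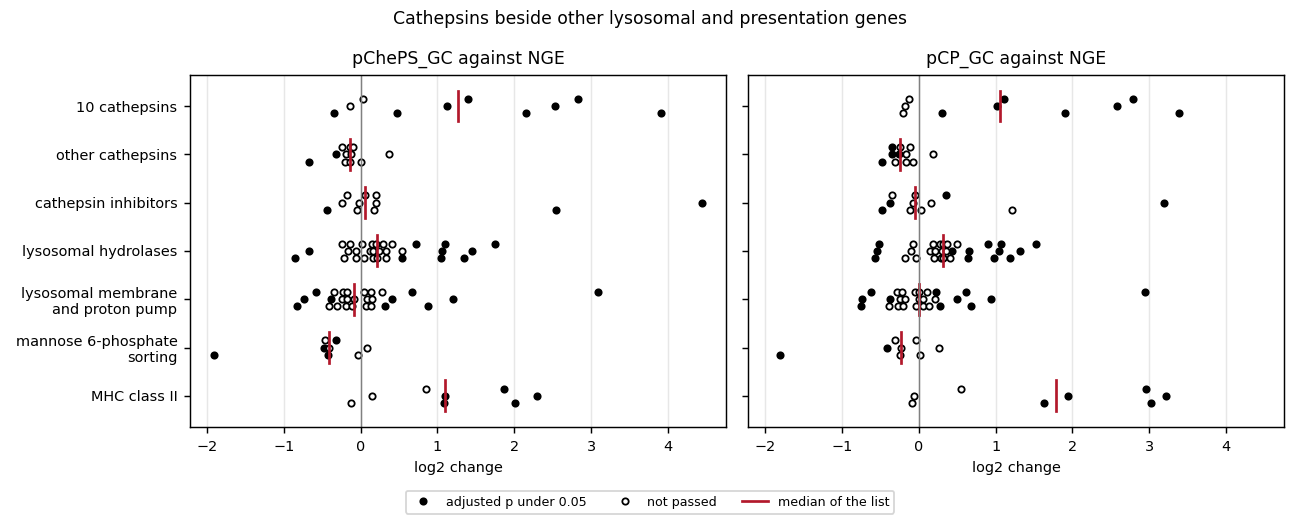
Log2 change (horizontal axis) of every measured gene of 7 lists in each tumour group against NGE. Filled points passed at an adjusted p under 0.05 and red lines are list medians. The 10 cathepsins have medians of 1.26 and 1.06, the lysosomal hydrolases 0.21 and 0.32.

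MHC class II genes, whose peptide loading depends on Ctss and Ctsl, rose for 5 of 8 members in each genotype, with median changes of 1.09 and 1.79. Among all genes 18.7% rose in pChePS_GC and 20% in pCP_GC. Cd74, the invariant chain itself, read 9.82, 12.08, 10.87 and 10.11 in pChePS_GC, 11.29, 11.37 and 11.48 in pCP_GC, and 7.94 to 8.97 in NGE. It rose by 2.30 (SE 0.43, adjusted p = 0.00217) and by 2.96 (SE 0.47, adjusted p = 0.000736). Between the tumour genotypes its change was -0.66 (adjusted p = 0.486), and 0 of the 8 passed.

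Within groups the members did not move as a block. Deviations from the group mean were compared over 11 arrays for 45 pairs of members, as a description of these arrays, and the pairs named were chosen after their values were seen. Ctsk and Ctse ran opposite (Pearson r = -0.905, Spearman rho = -0.882), and the r was -0.837 without pChePS_GC replicate 3 and pCP_GC replicate 2. Ctss and Ctsb ran together (r = 0.935, rho = 0.936, and r = 0.797 without replicates 1 and 2 of pCP_GC), although the group means of Ctsb lay close together. Ctsk and Ctsl gave r = 0.786 and rho = 0.636, and the r was 0.503 without the same 2 arrays as for Ctse. These arrays share tissue composition and normalization within each sample.

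By the same deviations, the genes most like Ctsk over 11 arrays were Phyhd1 (r = 0.974), Dbn1 (r = 0.973) and Hsd11b1 (r = 0.973), the last an enzyme that regenerates glucocorticoids. Hsd11b1 read 9.12, 8.39, 10.75 and 8.43 in pChePS_GC and 8.10, 10.84 and 8.82 in pCP_GC, with the same 2 arrays high as for Ctsk, and 6.44 to 6.64 in NGE. Dbn1 shares the within-group pattern, but its tumour arrays lay below NGE, at 9.68 to 10.23 in pChePS_GC, 9.21 to 10.28 in pCP_GC and 10.29 to 10.46 in NGE. Most like Ctse were Papss2 (r = 0.950), which makes the sulfate donor for sulfation, Sh2d1b1 (r = 0.947) and Gm10451 (r = 0.946). Sh2d1b1 lay under the receptor-gene percentile in every group, and Gm10451 in pChePS_GC and NGE. Papss2 read 11.77 to 12.38, 12.04 to 12.62 and 13.20 to 13.48 in pChePS_GC, pCP_GC and NGE. Taking the highest of all genes over 11 arrays gives high r values by selection. Olfr196, an odorant receptor gene under the receptor-gene percentile in every group, gave r = 0.936 with Ctsh.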

How the data were processed

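Total RNA of 11 mouse stomach samples was labelled with biotin for Affymetrix arrays, per the labels' protocols. The authors deposited a normalized log2 signal for each probe set on each array, a unit inferred from the range of 2.88 to 14.56. The submitters' processing notes name Affymetrix Expression Console. Its version, the algorithm and the genome build: not given in the sources used here. The authors' summarization sets the level of dim probe sets.

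Of 35556 probe sets, the platform annotation gave 1 gene symbol for 21789, several for 1621 and none for 12146. By gene number, 21698 matched RefSeq (GRCm38.p6, used for names), and 0 symbols changed. Each gene took its probe set with the highest mean, which gave 19938 genes. No dim gene was left out. One model of group means over the 11 arrays was fitted in R 4.3.3 by limma 3.58.1 (lmFit and eBayes), two-sided, with Benjamini-Hochberg adjustment over all genes. The fit was tested on simulated arrays first. Ranks and list medians are descriptions.

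The members, gene lists and naming rule were chosen with earlier results of these data known. All 10 members are named. From the lists the rule allows the first 3 measured genes and up to 3 with the largest passing change. Only some of the list genes so allowed are printed, which is a further selection. The 3 genes nearest to Ctsk and Ctse by within-group correlation are named. Xist, Eif2s3y and Smad4 fall outside this rule and were chosen after their values were seen. Same-numbered arrays of different groups did not deviate together (r from -0.155 to 0.156 over 10 pairs), so replicate numbers were not used as pairs. Alternatives tried were another variance prior, fitting 2 groups alone, 2 scalings, filters on dim genes, averaged probe sets, array weights, a replicate block, stricter thresholds, and leaving out each array in turn.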

Additional observations from a re-analysis of the deposited data

Results flagged for a closer look

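Each member was examined for an array that stands apart in the 2 groups with 4 arrays (20 group and gene combinations, where chance alone would mark about 1 in 20 at Dixon's 95% critical value of 0.829). None was marked, and the highest ratio of gap to range was 0.758, for Ctsk in NGE. The next was 0.682, for Ctsk in pChePS_GC. The pCP_GC group has 3 arrays and was not examined, so the high Ctsk of its replicate 2 is given only as a value. No member differed between the tumour genotypes at an adjusted p under 0.05 by limma.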

How the results depend on the processing

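Over the members' changes in the 3 comparisons, each under 22 alternatives, 637 repeats kept direction and side of the threshold, 8 lost the call, 7 gained one and 8 turned sign. The counts of members that rose or fell kept within 1.5 times of the reported ones except for falls. In pChePS_GC against NGE 2 members fell with centred arrays, 0 with quantile normalization and 0 at a 2-fold minimum, against 1 reported. In pCP_GC against NGE 3 fell with centred arrays and 2 with array weights, against 0 reported. Leaving out 1 array at a time gave 7 to 7 rises and 1 to 1 fall in pChePS_GC, 6 to 7 rises and 0 to 1 fall in pCP_GC, and 0 to 0 in either direction between tumour groups. The pCP_GC fall was Ctsb without pCP_GC replicate 2, and the lost rise was Ctsa. The sign turned for changes near 0 only: Ctsd in pChePS_GC against NGE (-0.15 with centred arrays, -0.01 with array weights, -0.058 without pChePS_GC replicate 4, in a range of -0.058 to 0.099 over single arrays left out), Ctse in pCP_GC against NGE (0.11 with quantile normalization), and between tumour groups Ctsb (-0.025 without pCP_GC replicate 1, range -0.025 to 0.171) and Ctsk (-0.30 without pChePS_GC replicate 3, -0.36 and -0.16 without pCP_GC replicates 1 and 3, range -0.36 to 0.646). The cause of these turns was not tested. With the replicate number as a block (replicate block), 7 members rose and 1 fell in pChePS_GC against NGE, 7 rose and 0 fell in pCP_GC against NGE, and 0 passed between tumour groups, so it changed no member's call. Over all genes, calls between tumour groups ranged over the alternatives from 0 to 54 higher (23 reported) and from 0 to 134 lower (50 reported), and were 0 and 0 both with the block and with only the 2 groups fitted. Against NGE they ranged from 1392 to 4356 higher and 665 to 9101 lower in pChePS_GC, and from 1621 to 4984 higher and 564 to 9716 lower in pCP_GC. Signal over background limits Ctsk and Ctss in NGE, and the array maximum may limit Ctse.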
